A study of Mus musculus with 9 samples.

Results

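The subcortical maternal complex is a protein assembly that lies beneath the membrane of the mouse egg and cleaving embryo. Its 6 named genes were taken by symbol, from what is known of the complex, and the rule uses no measured value, although earlier results of these data were known when the genes were chosen. They are the 4 core members Nlrp5 (also MATER), Ooep (FLOPED), Tle6 and Khdc3 (FILIA), and the 2 associated members Padi6 and Nlrp2. All 6 were among the 19359 genes of the expression table, and all 6 were among the 14876 genes tested, which had at least 1 CPM (a gene's reads divided by the reads of its library, times a fixed constant) in at least 3 of the 9 libraries.

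Growing oocytes transcribe these genes and store their messenger RNA and protein. The messages decay around meiotic maturation and fertilization, whereas the proteins last through cleavage and are excluded from the regions where cells touch. Mouse embryos from mothers that lack Nlrp5, Ooep, Tle6 or Padi6 fail during the first cleavages, and the complex is tied to the cytoplasmic lattices, fibres that store maternal proteins in the egg. A measurement of poly(A) RNA in embryos therefore reads the poly(A) part of what is left of a maternal store and of any transcripts the embryo adds. It does not read the protein.

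Poly(A) RNA was measured in whole mouse embryos after 3 procedures, with 3 libraries each, named A, B and C. LPN embryos had a later transfer of the pronuclei, the haploid nuclei of the fertilized egg. EPN embryos had an early transfer, and SPN embryos had a sham transfer and served as controls. Each library pooled 3 embryos taken 34 h after fertilization. Per the protocol shared by all groups, eggs came from B6D2F1 hybrid females aged 8 to 12 weeks that received pregnant mare serum gonadotropin and human choriogonadotropin, and the protocol also describes selective enucleation of germinal vesicle oocytes to make cytoplasts. The sire and the hour of each transfer are not given in the sources used here, nor is it said which groups received such cytoplasts or whether pools of one group came from separate days, so the p-values reflect no more than the variation among the 9 libraries, which may be technical.

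Total reads ran from 7611781 in LPN B to 15559218 in LPN A, and a single read equalled 0.131 CPM in LPN B and 0.0643 CPM in LPN A. The first principal component of all tested genes, 30.5% of the variance, placed the 3 LPN libraries between 36.76 and 77.95, the 3 EPN libraries between -29.37 and 7.26, and the 3 SPN libraries between -84.63 and -1.96. LPN B and SPN C were its ends, and SPN A lay within the EPN range. SPN A also had a higher mean rank correlation over genes with the EPN libraries (0.916) than with the other SPN libraries (0.897). Oocyte markers summed to 1228 to 1854 CPM in LPN, 2166 to 2639 CPM in EPN and 2693 to 3352 CPM in SPN, and 8 markers of the mouse 2-cell stage summed to 4533 to 7128 CPM in LPN, 3771 to 5510 CPM in EPN and 1779 to 3221 CPM in SPN. The 3 blood markers in the table summed to 13.3 to 30.8 CPM in LPN, 33.9 to 85.0 CPM in EPN and 42.8 to 100.4 CPM in SPN. This sum, mostly Hba-a1, was lowest in LPN, as the mean of Nlrp5 was. Lyz2 was not lowest there, at 3.28 to 4.69 CPM in LPN, 0 to 5.16 CPM in EPN and 0 to 6.80 CPM in SPN. The part of blood markers in the members' values was not tested. The 7 cumulus and granulosa markers in the table summed to at most 31.2 CPM in any library. Of these, Foxl2 was at 0 in every library, whereas Tnfaip6 had reads in every library, at 2.13 to 23.7 CPM. The 4 sperm markers summed to at most 12.3 CPM.

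The sequence upstream of the members is shown because growing oocytes are known to activate many of their genes through FIGLA, a basic helix-loop-helix factor that binds E-boxes, and NOBOX, a homeobox factor. The 120 bases before the first RefSeq start of each gene are given 5′ to 3′ on the gene's strand from the GRCm38.p6 assembly, with E-box letters (CANNTG) in capitals. All 6 genes matched RefSeq by symbol. They lie at chr7:23385769-23385888 (plus strand) for Nlrp5, chr9:78378589-78378708 (minus) for Ooep, chr10:81600901-81601020 (minus) for Tle6, chr9:73102278-73102397 (plus) for Khdc3, chr4:140742644-140742763 (minus) for Padi6 and chr7:5351036-5351155 (minus) for Nlrp2.
Nlrp5: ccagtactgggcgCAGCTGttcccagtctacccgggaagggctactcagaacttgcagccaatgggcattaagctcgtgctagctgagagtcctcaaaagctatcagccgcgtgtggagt
Ooep: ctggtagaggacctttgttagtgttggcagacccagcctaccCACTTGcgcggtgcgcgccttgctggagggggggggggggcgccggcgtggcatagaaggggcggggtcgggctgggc
Tle6: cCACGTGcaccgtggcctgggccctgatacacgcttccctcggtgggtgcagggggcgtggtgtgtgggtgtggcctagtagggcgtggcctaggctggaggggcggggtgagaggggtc
Khdc3: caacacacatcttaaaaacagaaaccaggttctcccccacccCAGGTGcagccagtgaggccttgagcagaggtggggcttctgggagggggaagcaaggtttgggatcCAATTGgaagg
Padi6: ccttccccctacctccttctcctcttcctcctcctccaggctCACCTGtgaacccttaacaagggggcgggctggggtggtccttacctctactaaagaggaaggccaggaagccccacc
Nlrp2: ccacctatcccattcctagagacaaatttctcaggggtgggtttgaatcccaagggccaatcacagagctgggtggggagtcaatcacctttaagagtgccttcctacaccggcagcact
Both strands were searched. An E-box stood in 5 of the 6 stretches, against 40.2% of the 32851 RefSeq windows of the same length, and Nlrp2 held none. The windows include every listed start of a gene, whereas the stretches are of first starts only. Nlrp5 and Tle6 have 2 starts each, and the 120 bases before their other start held 0 E-boxes. Over 250 bases it also stood in 5 of the 6, against 66.2% of windows. It began 107 bases before the start in Nlrp5 and 119 bases before it in Tle6. In Ooep, Khdc3 and Padi6 an E-box covered the same bases, 78 to 73 before the start, a position that held an E-box in 0.484% of all windows. That shared position was noticed after the sequences were read, so it carries no test. Khdc3 and Padi6 held the CAGGTG form, which 8.43% of windows hold. NOBOX letters were taken as TAATTG, with TAATTA as one variant form, which shares its first 5 letters, and with TAGTTG as another. None of the 6 stretches held them. Before the other start of Nlrp5, TAGTTG stood 98 bases away, a form that 2.29% of windows of 120 bases hold. Over 250 bases before the first starts, NOBOX letters occurred in 2 of the 6 genes, Nlrp5 and Ooep, against 16.1% of windows. Such matches are letters in a window and do not show that a factor binds there.

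Nlrp5, a leucine-rich repeat NLR protein at the core of the assembly, had the highest mean CPM of the members. It stood at 112, 41.6 and 64.8 CPM in LPN A, B and C, at 110, 102 and 118 CPM in EPN A, B and C, and at 144, 107 and 167 CPM in SPN A, B and C. LPN B and LPN C lay below every other library, whereas LPN A lay within the range of the EPN and SPN libraries, so LPN overlapped both other groups. The means were 72.7 ± 35.7 CPM in LPN, 110 ± 7.90 CPM in EPN and 139 ± 30.5 CPM in SPN (SD, n = 3 each). The coefficient of variation was 49.1% in LPN, 7.17% in EPN and 21.9% in SPN. Counting error, taken as if each read were a molecule, gives 4.09%, 2.62% and 2.48%. LPN B, the lowest, is the shallowest library, and the part of depth was not tested.

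Nlrp5 fell 2.03-fold in LPN relative to SPN, a log2 change of -1.02 (95% interval -1.70 to -0.34, limma adjusted p = 0.0494). A call here is an adjusted p under 0.05 by limma after Benjamini-Hochberg adjustment over all 14876 genes. The call sat at that threshold. It held in 3 of 20 other settings, which were a filter at a mean of 5 CPM (adjusted p = 0.0360), a block for the library letter (0.0296) and leaving out LPN A (0.0280, log2 change -1.38). Leaving out any other single library ended it, with adjusted p between 0.0521 without SPN A and 0.277 without LPN B. The log2 change was -0.68 without LPN B and -0.88 without SPN C. edgeR on the recovered reads gave a log2 change of -0.78 with adjusted p = 0.183, and DESeq2 gave -0.76 with adjusted p = 0.133. The change was negative in all 20 settings.

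**Figure D1:**
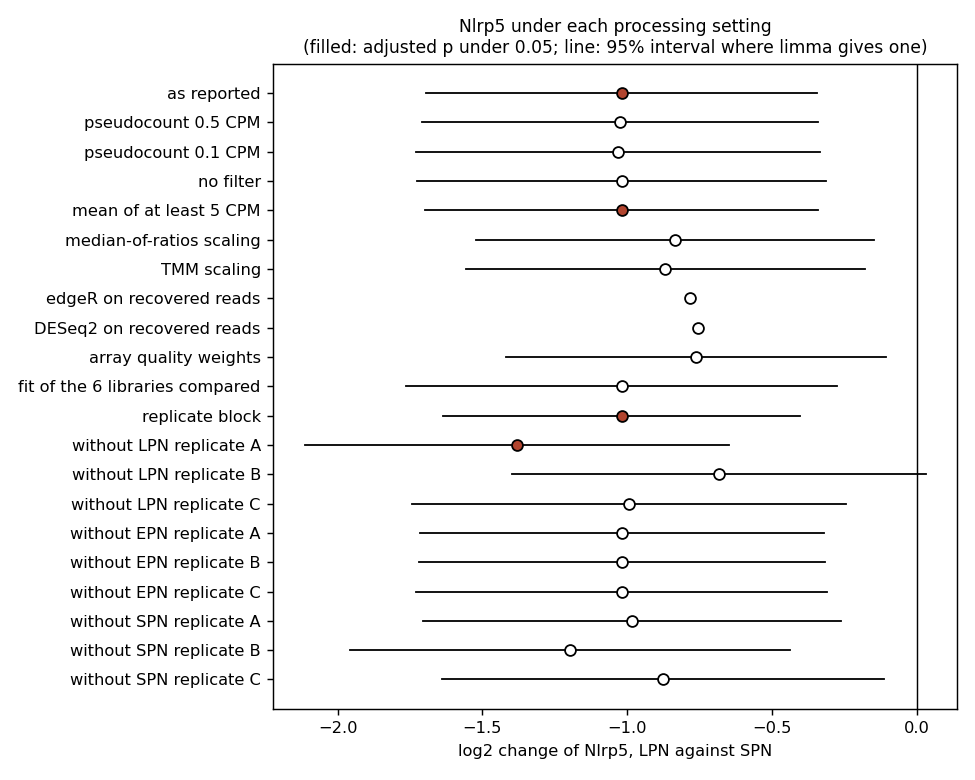
Log2 change of Nlrp5 in LPN against SPN (horizontal axis) under the reported fit and 20 alternatives, 1 per row. Filled points have an adjusted p under 0.05 and lines are 95% intervals where limma gives one. All points lie left of 0, between -1.38 and -0.68, and 3 alternatives beside the reported fit are filled.

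Nlrp5 did not pass the test in the other comparisons. The log2 change in EPN relative to SPN was -0.31 (95% interval -0.99 to 0.36, limma adjusted p = 0.760). In LPN relative to EPN it was -0.71 (-1.38 to -0.03), with an unadjusted limma p of 0.0413 and an adjusted p of 0.237.

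Ooep, a KH-domain protein that binds Nlrp5 and Tle6 in the core, stood at 57.7, 54.8 and 66.4 CPM in LPN A, B and C, at 64.3, 52.8 and 73.3 CPM in EPN, and at 62.6, 69.6 and 122 CPM in SPN. SPN C was high and the other 8 libraries lay between 52.8 and 73.3 CPM, so the 3 groups overlapped. The means were 59.6 ± 6.02 CPM in LPN, 63.4 ± 10.3 CPM in EPN and 84.8 ± 32.5 CPM in SPN (SD, n = 3 each). The limma log2 change was -0.44 in LPN relative to SPN (95% interval -1.12 to 0.24, adjusted p = 0.407), and -0.36 in EPN relative to SPN (-1.04 to 0.32, adjusted p = 0.716). Between LPN and EPN it was -0.08 (-0.76 to 0.60, adjusted p = 0.920), and its sign turned under 4 other scalings or count models.

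Tle6, a relative of the Groucho corepressors that serves in the core, stood at 27.3, 15.8 and 26.2 CPM in LPN A, B and C, at 31.1, 36.0 and 31.3 CPM in EPN, and at 39.0, 22.9 and 55.8 CPM in SPN. Every LPN library lay below every EPN library, whereas SPN B lay within the LPN range. The means were 23.1 ± 6.38 CPM in LPN, 32.8 ± 2.78 CPM in EPN and 39.2 ± 16.5 CPM in SPN (SD, n = 3 each). None of its comparisons passed the limma test. The log2 change was -0.69 in LPN relative to SPN (95% interval -1.51 to 0.14, adjusted p = 0.275), -0.17 in EPN relative to SPN (-0.99 to 0.66, adjusted p = 0.913) and -0.52 in LPN relative to EPN (-1.35 to 0.30, adjusted p = 0.498). The EPN to SPN change was 0.13 without SPN C.

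Khdc3, a KH-domain protein linked in the mouse to chromosome stability in cleavage, was the scarcest member. It stood at 4.63, 1.45 and 6.70 CPM in LPN A, B and C, at 2.82, 7.03 and 4.05 CPM in EPN, and at 2.08, 5.85 and 4.72 CPM in SPN. These values rest on 11 to 90 reads a library, and the 11 reads of LPN B have an exact Poisson interval of 0.721 to 2.59 CPM, which covers counting error only. The groups overlapped throughout. Their means were 4.26 ± 2.65 CPM in LPN, 4.63 ± 2.17 CPM in EPN and 4.22 ± 1.94 CPM in SPN (SD, n = 3 each). Limma intervals for the log2 change ran from -1.37 to 1.25 in LPN relative to SPN (adjusted p = 0.962), from -1.19 to 1.43 in EPN relative to SPN (adjusted p = 0.967) and from -1.49 to 1.13 in LPN relative to EPN (adjusted p = 0.905). They leave room for more than a 2-fold change either way.

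Padi6, a peptidylarginine deiminase family member that the egg needs to form cytoplasmic lattices, had its highest levels in EPN. It stood at 63.9, 41.5 and 50.9 CPM in LPN A, B and C, at 121, 67.4 and 96.4 CPM in EPN, and at 73.9, 52.0 and 70.5 CPM in SPN. Every LPN library lay below every EPN library, and EPN B lay within the SPN range. The means were 52.1 ± 11.3 CPM in LPN, 94.8 ± 26.6 CPM in EPN and 65.5 ± 11.8 CPM in SPN (SD, n = 3 each). The LPN to EPN log2 change of -0.83 (95% interval -1.51 to -0.15) had an unadjusted limma p of 0.0178 and an adjusted p of 0.167. In LPN relative to SPN the log2 change was -0.33 (-1.01 to 0.35, adjusted p = 0.554), and in EPN relative to SPN it was 0.50 (-0.17 to 1.18, adjusted p = 0.604).

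Nlrp2, an NLR protein whose absence from the mother impairs early mouse development, stood at 19.9, 15.9 and 8.04 CPM in LPN A, B and C, at 12.4, 21.4 and 9.74 CPM in EPN, and at 30.6, 18.5 and 28.1 CPM in SPN. SPN A and SPN C lay above all other libraries, while SPN B lay within the ranges of LPN and EPN. The means were 14.6 ± 6.04 CPM in LPN, 14.5 ± 6.11 CPM in EPN and 25.7 ± 6.37 CPM in SPN (SD, n = 3 each). The limma log2 changes relative to SPN were alike in size, -0.83 in LPN (95% interval -1.80 to 0.14, adjusted p = 0.265) and -0.82 in EPN (-1.80 to 0.15, adjusted p = 0.541). Between LPN and EPN the change was -0.01 (-0.98 to 0.97, adjusted p = 0.997). Nlrp2 overlaps Gm5065 on the opposite strand, which held 3.50 to 21.0 CPM, and since the library kit does not mark strand, reads in the overlap cannot be told apart. For the other 5 members no overlapping gene had a row in the table, and the pseudogene row Nlrp5-ps had 0 reads in all 9 libraries.

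**Figure D2:**
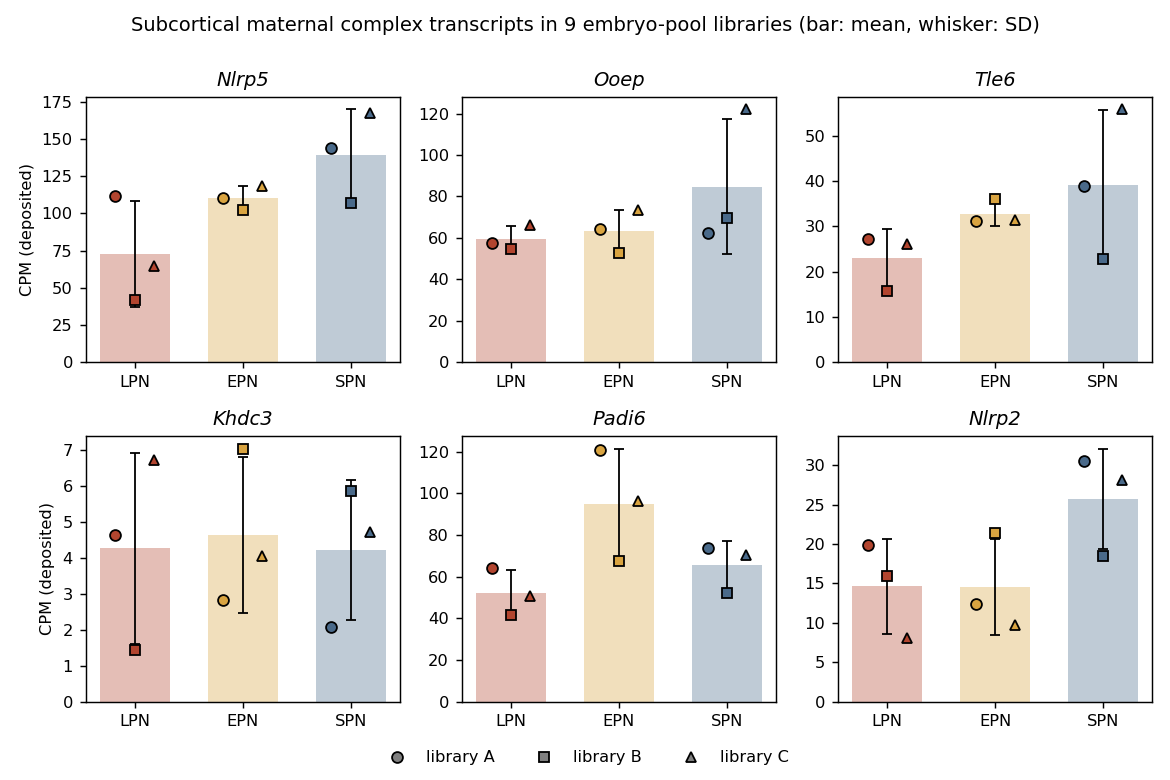
CPM of each member (1 panel a gene, vertical axis from 0) in LPN, EPN and SPN from left to right. Points are the libraries A, B and C, bars the mean and whiskers the SD of 3 libraries. Nlrp5 in LPN spans 41.6 to 112 CPM, and LPN lies wholly below EPN in the panels of Tle6 and Padi6.

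Per kilobase of exon, mean levels over the 9 libraries placed Ooep first at 32.4 CPM per kb, then Nlrp5 at 30.5 and Padi6 at 28.8, with Tle6 at 14.2, Nlrp2 at 5.37 and Khdc3 at 2.13. The first 3 changed places between libraries, so their order is not settled. The next shares are of the tested genes that had a protein-coding exon length in the annotation used. The level of Ooep exceeded 84.35% of them, that of Nlrp5 83.65% and that of Padi6 83.0%. That of Tle6 exceeded 72.89%, that of Nlrp2 54.85% and that of Khdc3 37.14%. The transcripts of a complex whose proteins act together thus spanned a wide range of RNA levels. Lengths come from an annotation of an older assembly than the one the authors used, and a per-length level assumes even coverage of the transcript.

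Across the set, 1 of 6 members was called in LPN relative to SPN, beside 8.8% of all genes tested. It was called lower, as were 5.54% of all genes, and no member was called higher, beside 3.26%. At an unadjusted p under 0.05 stood 1 member, beside 26.9%. For EPN relative to SPN, limma called 0 of 6, beside 0.108% of all genes (0.0336% lower and 0.0739% higher). DESeq2 called 0 members beside 117 of all genes, and edgeR called 0 genes at all. There 0 members had an unadjusted limma p under 0.05, beside 11.0% of all genes. For LPN relative to EPN, limma called 0 of 6, beside 1.53% of all genes (0.84% lower and 0.692% higher). There 2 members had an unadjusted limma p under 0.05, beside 19.3%. edgeR and DESeq2 also called 0 members, beside 17 and 925 of all genes. The limma shares of called genes rest on 1309, 16 and 228 genes. With single libraries left out the counts ran from 96 (without SPN C) to 2733 (without SPN A) in LPN relative to SPN, from 0 to 451 (without SPN A) in EPN relative to SPN, and from 4 to 762 in LPN relative to EPN.

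All 6 members had a negative log2 change in LPN relative to SPN, with a median of -0.57, beside 57.0% of all genes negative and an all-gene median of -0.17. In EPN relative to SPN 4 of 6 were negative with a median of -0.24, beside 54.5% and -0.07. Between LPN and EPN 6 of 6 were negative with a median of -0.35, beside 56.7% and -0.14. Relative to the all-gene shift the 3 medians were -0.40, -0.17 and -0.22. The first 2 comparisons share the SPN libraries. The 2 with all 6 members negative share the LPN libraries, among them LPN B, where all 6 lay below their own means. Under edgeR and DESeq2 the negative members numbered 5 in LPN relative to SPN and 4 in LPN relative to EPN. For 0 members were LPN or EPN free of overlap with SPN, beside 27.5% and 14.6% of all genes, and 2 members, Tle6 and Padi6, were free of overlap between LPN and EPN, beside 26.6%. CPM is a share of the reads of a library, so it does not give the amount of a transcript per embryo or per cell.

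**Figure D3:**
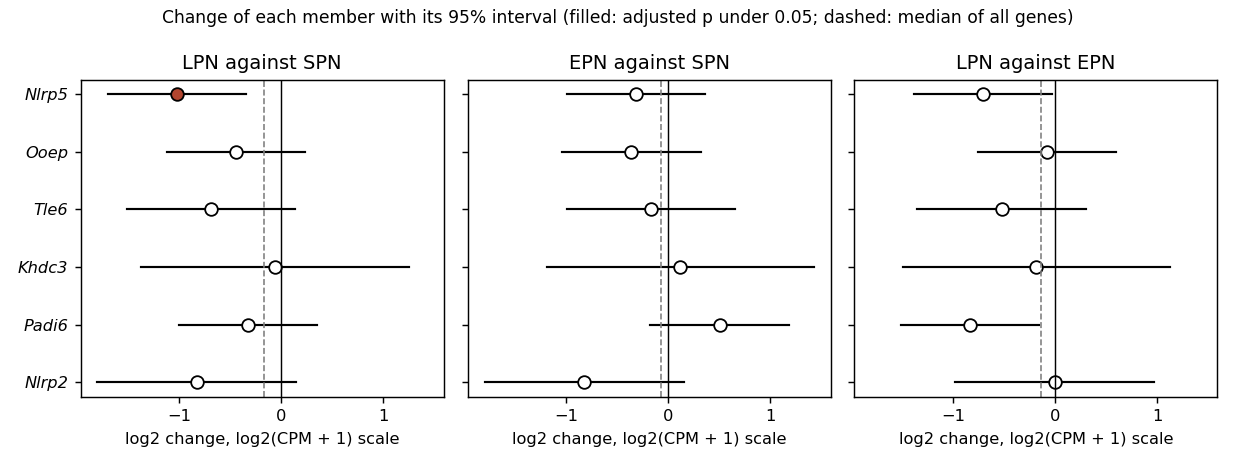
Log2 change of each member with its 95% limma interval (horizontal axis) in the 3 comparisons, with the dashed line at the median of all genes. Only Nlrp5 in LPN against SPN is filled (adjusted p = 0.0494), and Padi6 in EPN against SPN, at 0.50, lies on the side of 0 opposite to Nlrp2, at -0.82.

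The members did not move as a unit from library to library. After each gene was centred on its own mean log2 level, LPN B held all 6 below their means (average -0.71) and SPN C held all 6 above them (average 0.57). The other 7 averages lay between -0.27 in LPN C and 0.17 in SPN A. LPN B was the shallowest library, and LPN B and SPN C were also the ends of the first principal component of all genes. The part of depth in the members' values was not tested. The part of these libraries was examined only by leaving each library out, which does not isolate depth.

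**Figure D4:**
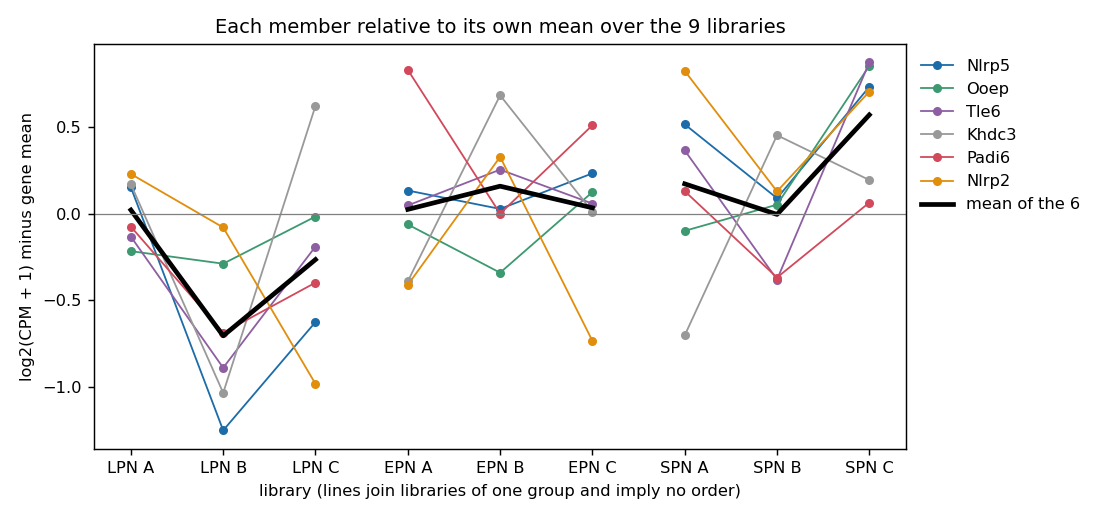
Log2(CPM + 1) of each member minus its own mean over the 9 libraries (vertical axis), with the mean of the 6 as a thick line. Libraries run from LPN through EPN to SPN, and lines join libraries of a group without implying an order. LPN B is low (-0.71) and SPN C high (0.57) in the mean line, while single members cross each other in most libraries.

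Among the 15 member pairs, Nlrp5 and Tle6 had the most similar centred profiles, with a root-mean-square difference of 0.29 on the log2 scale, and Khdc3 and Nlrp2 the least similar, at 0.87. Nlrp5 took 24.3% to 40.9% of the summed CPM of the 6 genes and Padi6 15.7% to 35.3%. The ratio of Padi6 to Nlrp5, picked after its values were seen, was 0.573 to 0.997 in LPN, 0.659 to 1.09 in EPN and 0.421 to 0.513 in SPN. Every LPN and EPN library thus had a higher ratio than every SPN library. Of the 15 pair ratios, 1 was free of overlap in LPN relative to SPN and 3 in EPN relative to SPN. Those 3 were Padi6 with Nlrp5, with Ooep and with Nlrp2. The pair of Padi6 and Nlrp5 was picked from 15 for its separation, and both comparisons share the SPN libraries, so it is given as a description with no test. A ratio within a library does not depend on its scaling.

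Among 3438 genes averaging 50 CPM or more, the 5 whose centred profiles lay nearest to the mean profile of the members were Tsc22d1 at a root-mean-square difference of 0.16, Prdx5 and Psme3 at 0.17 each, Nup50 at 0.17 and Ywhab at 0.18, on the log2 scale over 9 libraries. The median gene lay at 0.53, and the mean profile itself had a root mean square of 0.32. Tsc22d1 (a leucine-zipper protein) was also the gene nearest to Nlrp5, at 0.17, with 110 ± 32.0 CPM in LPN, 158 ± 7.76 CPM in EPN and 203 ± 30.7 CPM in SPN (SD, n = 3 each). The gene nearest to Ooep was Hnrnpd at 0.16, to Tle6 Ywhab at 0.19, to Padi6 Zfp148 at 0.12, to Nlrp2 Btf3 at 0.29 and to Khdc3 Rps29 at 0.32. For scale, the profiles of Nlrp2 and Khdc3 themselves had a root mean square of 0.58 and 0.56.

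Among 9 genes for partners of the complex and proteins bound to it or held by it, 2 fell in LPN relative to SPN, 0 rose and 7 did not pass the test. Of all genes, 5.54% were called lower and 3.26% higher in that comparison. Nlrp4f, an NLR protein found with the complex in mouse eggs, averaged 90.4 ± 18.6 CPM in LPN, 189 ± 24.3 CPM in EPN and 248 ± 14.0 CPM in SPN (SD, n = 3 each). Its limma log2 change in LPN relative to SPN was -1.46 (95% interval -2.04 to -0.89, adjusted p = 0.00333), and it stayed called in all 20 other settings. Zbed3, a zinc finger protein of the complex that takes part in spindle positioning, averaged 968 ± 407 CPM in LPN, 2705 ± 899 CPM in EPN and 2878 ± 1220 CPM in SPN. Its change in LPN relative to SPN was -1.58 (limma adjusted p = 0.00564), and the call was lost without LPN B (0.0802), without SPN C (0.0513), with no filter (0.0571) and with edgeR (0.0516). The median log2 change of the 9 was -0.69, beside -0.17 for all genes.

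Zbed3 and Nlrp4f were also the 2 genes of this list called in LPN relative to EPN, Zbed3 at -1.53 (limma adjusted p = 0.0243) and Nlrp4f at -1.06 (adjusted p = 0.0489). There 0.84% of all genes were called lower. The call of Zbed3 was lost without LPN A, LPN B, EPN A or EPN C (up to 0.203), with edgeR (0.116) and in 4 more settings. That of Nlrp4f was lost when any library but SPN A was left out (up to 0.217), with edgeR (0.122) and in 5 more settings. In EPN relative to SPN limma called 0 of the 9, and the smallest p-values belonged to Parp1, a DNA damage sensor, at 0.86 (adjusted p = 0.460) and Dppa3, which guards the maternal genome from demethylation, at 0.48 (adjusted p = 0.573).

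Of 13 other NLRP genes in the table, the family of Nlrp5 and Nlrp2, 12 were tested. Of these, 4 fell and 0 rose in LPN relative to SPN, beside 5.54% of all genes called lower, among them Nlrp4f and Nlrp4e. The count was 1 to 3 when any single library was left out, 1 without LPN B or SPN C. Nlrp4e averaged 63.7 ± 14.5 CPM in LPN and 157 ± 62.4 CPM in SPN (SD, n = 3 each; log2 change -1.24, limma adjusted p = 0.0170), and its call was lost without LPN A (0.0740), LPN B (0.0823) or SPN C (0.167) and with edgeR (0.0507). The calls of Nlrp9b (-1.38, limma adjusted p = 0.0430) and Nlrp9a (-0.995, adjusted p = 0.0480) were lost in 15 and 17 of 20 other settings. They reached 0.218 without LPN B for Nlrp9b and 0.202 with edgeR for Nlrp9a. In EPN relative to SPN limma called 0 of 12, with Nlrp4e at -0.60 (adjusted p = 0.488) and Nlrp12 at -0.78 (adjusted p = 0.596) nearest. In LPN relative to EPN it called Nlrp4f alone, beside 0.84% of all genes called lower. Reads of such related genes can map to more than one copy.

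The families of the remaining members held 0 called genes in any of the 3 comparisons as fitted. These were 2 tested PADI genes, 4 TLE genes and 4 KH-domain genes. Tle3, a Groucho corepressor, averaged 2.65 ± 2.85 CPM in LPN, 5.22 ± 2.43 CPM in EPN and 11.6 ± 5.96 CPM in SPN (SD, n = 3 each), with a log2 change of -1.95 and a limma adjusted p of 0.0537 in LPN relative to SPN. Khdc1c, a KH-domain gene of the oocyte, was at -1.04 (adjusted p = 0.0929) and Padi2 at -0.86 (adjusted p = 0.416) in that comparison. Under other settings Tle3 was called in 5 of 20 (adjusted p down to 0.0149, with array weights; 0.0287 without LPN C and 0.0415 without SPN A). Khdc1c was called in 2, with array weights (0.00351) and without SPN A (0.000862), where 3 KH-domain genes were called lower in LPN and 1 in EPN relative to SPN. Padi2 reached at most 3.85 CPM in a library, and Padi4 at most 4.20 CPM, against a lowest value of 41.5 CPM for Padi6.

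Of 20 maternal-effect genes outside the complex, 6 fell in LPN relative to SPN, 0 rose and 14 did not pass the test, beside 5.54% of all genes called lower and 3.26% called higher. The count was 0 without LPN B or without SPN C and 9 without SPN A. The median log2 change was -1.01, beside -0.17 for all genes and -0.57 for the 6 complex members. The 4 with the smallest p-values were Uchl1 (a deubiquitinase, -1.36, limma adjusted p = 0.00466), Cnot6l (a deadenylase of maternal messages, -1.43, 0.00771), Hsf1 (the heat shock factor, -1.40, 0.00921) and Kdm1b (a histone demethylase, -1.56, 0.0116). Each of these 4 calls was lost without LPN B, with adjusted p from 0.0514 to 0.0879, and without SPN C, with adjusted p from 0.0620 to 0.108, and that of Kdm1b also without SPN B (0.0528). All 20 log2 changes in LPN relative to EPN were negative, beside 56.7% of all genes. There 1 gene was called, Cnot6l at -1.46 (limma adjusted p = 0.0243), beside 0.84% of all genes called lower. Its call was lost without LPN A, LPN B, EPN A or EPN C (up to 0.159), with edgeR (0.0843) and in 2 more settings. In EPN relative to SPN 0 of 20 were called, and Smarca4, a chromatin remodeller, came nearest at 1.06 (adjusted p = 0.235).

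Of 7 oocyte transcription factors and partners, including Figla and Nobox, 6 were tested and 0 were called in any comparison as fitted. Lhx8, a homeobox factor of the oocyte, averaged 1.85 ± 0.847 CPM in LPN and 6.87 ± 0.189 CPM in SPN (SD, n = 3 each; log2 change -1.50, limma adjusted p = 0.115), and Taf4b was at -0.64 (adjusted p = 0.147). Taf4b was called in 2 of 20 other settings, with array weights (0.0200) and without SPN A (0.0336). Among 8 oocyte markers, 3 fell in LPN relative to SPN and 1 rose, beside 5.54% of all genes called lower and 3.26% called higher. Bmp15, Gdf9 and Oosp1, which encode secreted oocyte proteins, fell with log2 changes of -1.40, -1.34 and -1.09 (limma adjusted p = 0.00564, 0.00960 and 0.0129). Zp3, a zona pellucida protein, rose at 1.16 (adjusted p = 0.0166). Leaving out LPN B or SPN C raised each of these 4 adjusted p-values to between 0.0504 and 0.0938. The call of Zp3 was also lost without SPN B (0.0803), that of Oosp1 without LPN C (0.0529) and in 4 more settings, and that of Bmp15 with edgeR (0.0513). H1f8, the oocyte linker histone, fell in LPN relative to EPN (-1.59, limma adjusted p = 0.0238), and this call was lost without LPN B (0.154), EPN A (0.0510) or EPN C (0.149) and in 3 more settings. Of the 8 markers of the mouse 2-cell stage, 5 rose in LPN relative to SPN, beside 3.26% of all genes. The count was 3 without LPN C or SPN B, 1 without SPN C and 7 without SPN A, and 2 with edgeR, and several belong to multi-copy families whose reads can map to more than one gene. The part of embryo stage in the members' levels was not tested.

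**Figure D5:**
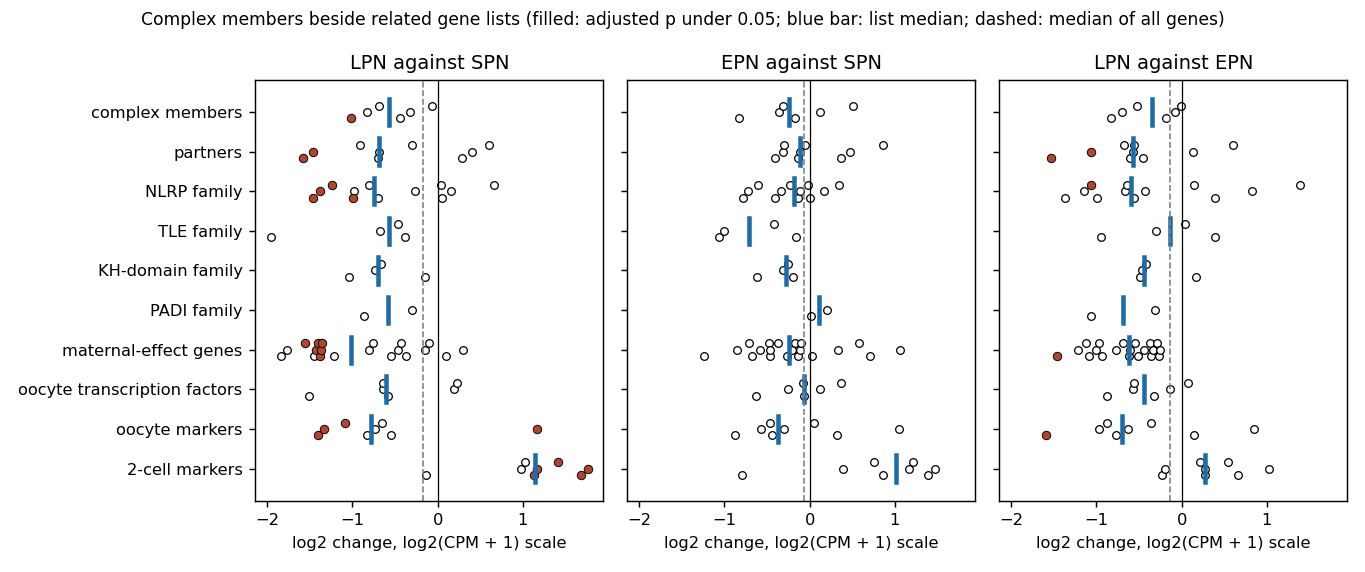
Log2 change of every tested gene of the complex and of 9 related lists (1 row a list) in the 3 comparisons. Filled points have an adjusted p under 0.05, the blue bar is the list median and the dashed line the median of all genes. In LPN against SPN the complex has 1 filled point and a median of -0.57, the maternal-effect genes 6 filled points and a median of -1.01, and the 2-cell markers lie mostly right of 0.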

How the data were processed

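The labels describe Smart-seq2 v4 cDNA, Nextera XT libraries and 150-bp paired reads. The tools named are HISAT2 2.2.1, Trim Galore 0.6.7, edgeR and R 3.3.3, with the GRCm39 build, per the submitters' processing notes. The sources used here do not give the read counter or gene annotation. CPM values were deposited by the authors for 19359 genes in 9 libraries. All deposited CPM values were whole multiples of 1 read within 0.01 reads, which gave back the reads and totals. Reads outside the table made up 3.66% to 5.68% of a total. Without molecular identifiers reads can be copies of a molecule, so intervals cover counting error only.

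Genes reaching 1 CPM in 3 or more libraries were fitted as log2(CPM + 1), so changes of low genes are understated, with limma 3.58.1 (R 4.3.3, trend-adjusted empirical Bayes, all 9 libraries, group only). P-values are two-sided and adjusted by the Benjamini-Hochberg method over all 14876 genes. The fit was tested on simulated data with 200 changed genes, drawn from the better-expressed genes, and with the same variation beyond counting for all genes and groups. It therefore does not cover a gene as scarce as Khdc3 or a spread that differs between groups, as for Nlrp5. Alternatives were pseudocounts of 0.5 and 0.1, no filter, a mean of 5 CPM, 2 other scalings, edgeR 4.0.16 and DESeq2 1.42.0 on the recovered reads, array weights, the 6 libraries of a comparison, a block for library letter and each library left out.

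The members and all lists were chosen with earlier results of these data known. All 6 members are named, and from each related list up to 4 called genes by smallest adjusted p, or up to 2 where none was called. The marker lists of other cells and of the 2-cell stage are given as sums and counts. Exon lengths are from the GENCODE annotation and promoters from RefSeq, both on GRCm38, so they share no coordinates with the files. Protein sequences were not used here.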

Additional observations from a re-analysis of the deposited data

How the results depend on the processing

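The call of Nlrp5 in LPN relative to SPN made the count of called members 1, and this count was 0 with pseudocounts of 0.5 or 0.1, with no filter, with median-of-ratios or TMM scaling, with edgeR, with DESeq2, with array weights and in the fit of the 6 libraries compared. It ranged from 0 to 1 when single libraries were left out. No other member was called in any comparison or setting. With the replicate block the count was 1, and 1644 genes were called in LPN relative to SPN, 25 in EPN relative to SPN and 480 in LPN relative to EPN, against 1309, 16 and 228 without it. Same-letter libraries had correlations of deviations between -0.024 and 0.092 over 9 pairs, and libraries of other letters between -0.1 and 0.096. Of the 9 libraries, 6 correlated best with one of their own letter. These small values do not settle whether the letters pair the libraries. edgeR called 477, 0 and 17 genes and DESeq2 1826, 117 and 925. Of the genes called in LPN relative to SPN, 485 were higher and 824 lower as deposited, 675 and 541 under median-of-ratios scaling, 606 and 590 under TMM scaling, and 924 and 902 with DESeq2.

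Among the genes named, signs turned in the results given next, none of which was called. For Khdc3 in LPN relative to SPN (-0.06) the values were 0.0801 with median-of-ratios scaling, 0.0568 with TMM, 0.17 with edgeR and 0.20 with DESeq2, and in EPN relative to SPN (0.12) -0.0884 with array weights. Ooep in LPN relative to EPN (-0.08) gave 0.0501, 0.0176, 0.0063 and 0.0389 under the same 4 settings, and Nlrp2 (-0.01) gave 0.12, 0.0898, 0.12 and 0.16, and 0.23 with array weights. Padi4 in EPN relative to SPN (0.02) was -0.0077 with a pseudocount of 0.1. With single libraries left out, Khdc3 ranged from -0.41 to 0.41 in LPN relative to SPN, from -0.22 to 0.37 in EPN relative to SPN and from -0.53 to 0.29 in LPN relative to EPN. In EPN relative to SPN Tle6 ranged from -0.50 to 0.13, Padi4 from -0.27 to 0.31, Padi2 from -0.33 to 0.83, Sohlh2 from -0.48 to 1.04 and Dppa5a from -0.54 to 0.0372. In LPN relative to EPN Ooep ranged from -0.20 to 0.0276 and Nlrp2 from -0.26 to 0.35. The cause was not tested. Khdc3 could not be fitted at a mean of 5 CPM, since its mean lies below it, and it had 11 to 90 reads a library. Its coefficients of variation were 62.2%, 46.8% and 45.9% in LPN, EPN and SPN, against 19.8%, 13.6% and 15.1% from counting alone.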

Other observations

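Among the markers of other cells, Hba-a1, an alpha-globin gene of red blood cells, was detected in every library, at 9.13 to 26.1 CPM in LPN, 32.9 to 77.1 CPM in EPN and 35.1 to 100.4 CPM in SPN. It was called lower in LPN relative to SPN by limma (log2 change -1.58, adjusted p = 0.0247). In 6 of 20 other settings no blood marker was called lower, namely with no filter, with edgeR, and without LPN A, LPN B, SPN B or SPN C. No cause of this pattern was tested.

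Prm2, a sperm protamine gene, was detected in all 9 libraries at 1.27 to 9.27 CPM. The other sperm markers in the table, Prm1, Tnp1 and Odf1, were each at 0 in some libraries. Among the cumulus and granulosa markers, Cyp11a1 was at 0 in all LPN and EPN libraries. Tnfaip6 and Star of that list had reads in all 9 libraries, at 2.13 to 23.7 CPM and 0.920 to 5.67 CPM.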
